A study of Mus musculus with 16 samples.

Results

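The 10 genes described here encode those subunits of the BAF chromatin remodelling complex that are known to be exchanged, or to differ, between stem cells, neural progenitors and neurons, and their mRNA was followed here during the neuronal differentiation of mouse embryonic stem (ES) cells with and without Taf4a. They were chosen by gene name, namely Smarca2, Smarca4, Smarcc1, Smarcc2, Smarcd3, Actl6a, Actl6b, Phf10, Dpf1 and Dpf3, and all 10 were found, each as 1 row, among the 27807 genes of the deposited table. TAF4A is a subunit of TFIID, the complex that recognises core promoters. The series holds 16 polyadenylated RNA libraries in 8 groups of 2, with a wild-type (WT) and a homozygous Taf4a null (KO) group at each of 4 stages. All lines came from blastocysts of crosses of heterozygous C57Bl6J mice, with 2 independent lines of each genotype per the methods of the study, and the null allele lacks a pair of exons in every cell. ES cells were grown with LIF on inactivated embryonic fibroblast feeders. Embryoid bodies, floating aggregates of differentiating ES cells, stood for the later stages, namely EB4 prior to retinoic acid, EB5 with the first day of it completed, and EB8 further into this treatment, which drives cells towards glutamatergic neurons. The labels do not tie a library to a line, so that the p-values measure the spread between these libraries.

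BAF complexes use ATP to slide or evict nucleosomes and thereby open DNA to transcription factors. Each complex holds either SMARCA4 (BRG1) or SMARCA2 (BRM) as its ATPase, a pair of SMARCC scaffold proteins, an actin-related protein (ACTL6A or ACTL6B), a SMARCD protein, and a PHD-finger protein of the PHF10 or DPF family. ES cells are known for complexes with SMARCA4 and SMARCC1, whereas in neurons ACTL6A and PHF10 are replaced by ACTL6B and by DPF1 or DPF3, and the other subunits of neurons include SMARCC2 and SMARCA2.

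Depth, as reads recovered from the normalised values, ran from 22442118 to 40711826 reads per library. All 4 ES libraries (32631020 reads or more) were deeper than the 12 embryoid body libraries (27685306 reads or fewer), so that where ES is compared with a later stage, a sequencing batch, if there was any, and the stage cannot be told apart. Taf4a itself had between 1591 and 2400 normalised counts in all 16 libraries and was not lower in KO (log2 change 0.29 at EB8, limma adjusted p 0.194), but a count per gene does not resolve the deleted exons, so that genotypes are given as labelled. The median level of the X chromosome, as log2 deviation from the mean of all libraries, ran from -0.25 to 0.54 over the libraries, and that of chromosomes 8 and 11 reached 0.41 and 0.28. X stood at 0.35 to 0.54 in KO replicate 2 and at 0.47 in WT ES replicate 2. In the other libraries it was between -0.25 and -0.16. Chromosome 8 stood at 0.40 to 0.41 in replicate 1 of the WT embryoid bodies, but at -0.15 and -0.16 in WT ES. Chromosome 11 stood at 0.18 to 0.28 in KO replicate 1 and at -0.07 to -0.02 in KO replicate 2. Neither WT ES library matched the WT embryoid bodies of its number. From ES to later WT stages, line and stage thus cannot be told apart. The 10 BAF genes lie on 8 chromosomes other than X, 8 and 11, on which the level stayed between -0.14 and 0.15. In bulk RNA, fewer cells of a type and less RNA per cell cannot be told apart.

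From ES to EB8 in WT, the mRNA of Smarca2, Smarcc2, Smarcd3, Actl6b and Dpf3, subunits known from neurons, rose, whereas that of Dpf1, also known from neurons, changed by -0.56 and did not pass the test. Of the subunits known from dividing cells, Actl6a fell and Phf10 rose. On the scale of log2(normalised count + 1), where a normalised count is a read count divided by the size factor of its library, 6 of the 10 genes rose (Smarca2, Smarcc2, Smarcd3, Actl6b, Phf10 and Dpf3), 1 fell (Actl6a) and 3 did not pass the test (Smarca4, Smarcc1 and Dpf1). The threshold was a limma adjusted p of 0.05 over 16124 genes (those whose mean reached 10 normalised counts), and by it 24% of all genes rose and 22.8% fell. In KO, 4 of the 10 rose over the same interval (Smarca2, Smarcc2, Smarcd3 and Dpf3) and 3 fell (Smarcc1, Actl6a and Dpf1), beside 19.7% and 18% of all genes. The median log2 change of the 10 genes was 1.20 in WT and 0.56 in KO, beside 0.01 and 0.02 over all genes. The 2 genotypes share no library in this comparison. Actl6b passed the filter on low values only through the WT EB8 libraries, as its mean was 13.4 normalised counts with and 2.66 without them, and it therefore had to differ there. Of the 9 genes that passed the filter also without these libraries, 5 rose in WT. Among these was Dpf3, which passed the filter largely through the EB8 libraries of both genotypes.

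**Figure D1:**
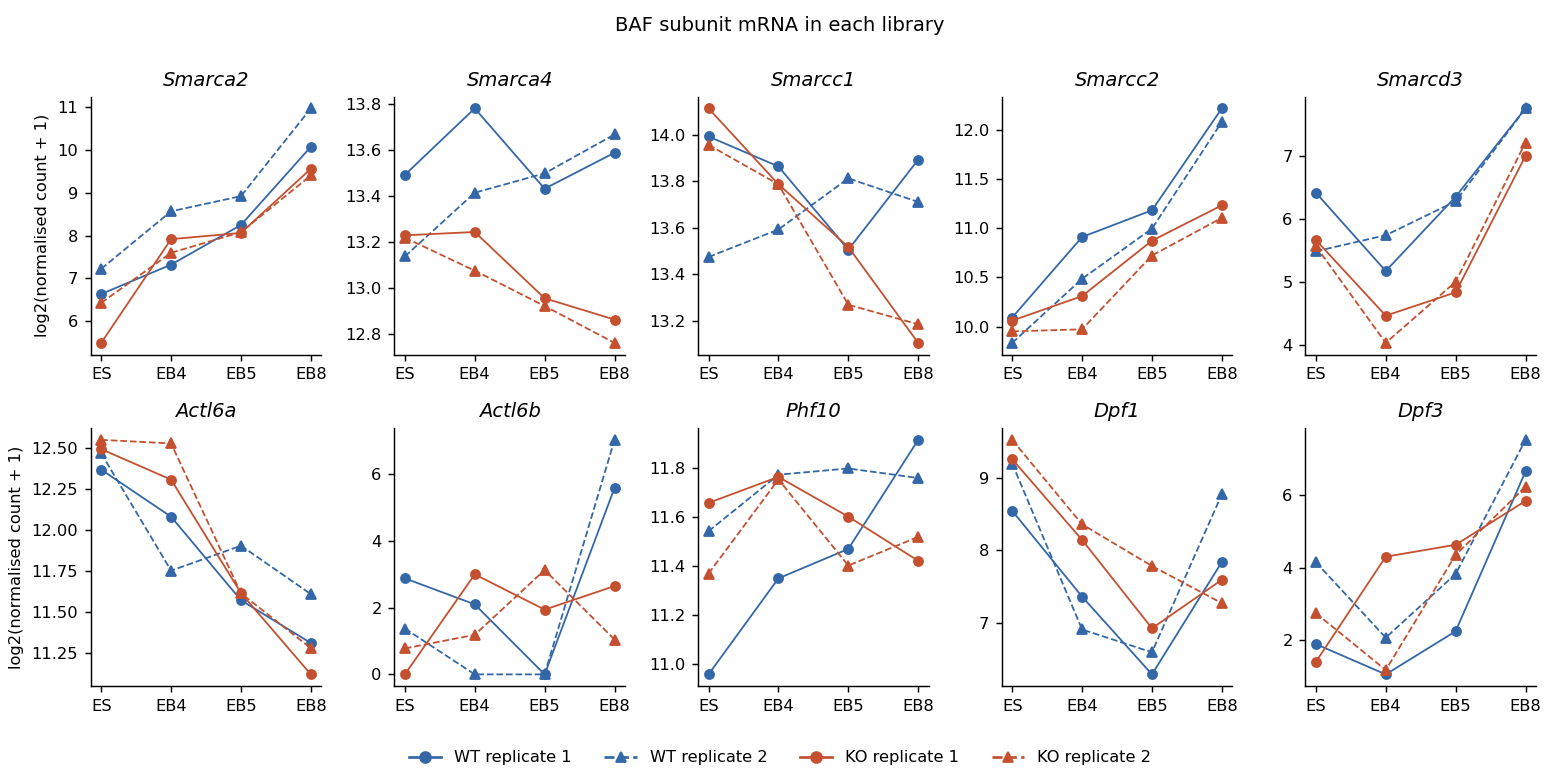
Level of each of the 10 subunit mRNAs in every library, as log2(normalised count + 1) on the vertical axis (each panel has its own scale that does not start at 0), over the 4 stages on the horizontal axis. Lines join libraries with the same replicate number and genotype, which are not known to be from 1 line. At EB8 both KO points lie below both WT points in all 10 panels, an arrangement that 33.5% of all genes tested had. Of the 10, Actl6b passed the filter on low values only through the WT EB8 libraries.

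The ATPases SMARCA4 and SMARCA2 are the motor of the complex. Smarca2 (NCBI37, chr19:26679650-26852811, plus strand) had 98.3 and 148.3 normalised counts in the WT ES libraries, 158.9 and 378.5 at EB4, 303.0 and 484.3 at EB5 and 1080 and 2012 at EB8. In KO it had 44.0 and 85.1 at ES, 240.7 and 192.7 at EB4, 266.4 and 269.6 at EB5 and 755.4 and 677.5 at EB8. Every EB8 library thus lay above all libraries of earlier stages in either genotype, and the 2 EB8 groups did not overlap. Smarca2 rose 12.1-fold from ES to EB8 in WT (log2 change 3.60 ± 0.46 SE, limma adjusted p 6.97e-05) and 11.5-fold in KO (3.53 ± 0.46, adjusted p 0.000185). The difference between these changes was -0.07 on the log2 scale with a 95% interval of -1.47 to 1.33, so that a difference of over 2-fold in either direction was within the interval. Part of the WT rise came between EB5 and EB8 (1.94 ± 0.46, adjusted p 0.018). Without WT EB5 replicate 1 or WT EB8 replicate 2 this last step did not pass (adjusted p 0.16 and 0.167).

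Smarca4 (chr9:21420613-21508674, plus strand) had 11528 and 9012 normalised counts in WT ES, 14092 and 10925 at EB4, 11058 and 11582 at EB5, and 12325 and 13024 at EB8. The KO counts were 9606 and 9538 at ES, 9703 and 8634 at EB4, 7944 and 7760 at EB5 and 7449 and 6943 at EB8. WT and KO libraries overlapped at ES and did not overlap at any embryoid body stage, where KO was the lower. The change from ES to EB8 was 0.31 ± 0.15 in WT (limma adjusted p 0.112) and -0.41 ± 0.15 in KO (adjusted p 0.0519), and the difference of the changes was -0.73 ± 0.22 (adjusted p 0.0627), none of which passed. The difference passed with each of the 3 replicate blocks tried (adjusted p 0.041 to 0.0459). Leaving out WT ES replicate 1 brought the WT change past the threshold (0.49, adjusted p 0.0346). The KO change was past the threshold in 6 alternatives, among them DESeq2 (adjusted p 0.0316), and was 0.022 with quantile normalisation.

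The SMARCC proteins form the scaffold. Smarcc2 (chr10:127896292-127927229, plus strand) had 1090 and 911.3 normalised counts in WT ES, 1927 and 1434 at EB4, 2327 and 2044 at EB5 and 4782 and 4347 at EB8. The KO counts were 1067 and 988.5 at ES, 1269 and 1003 at EB4, 1877 and 1690 at EB5 and 2410 and 2206 at EB8. The genotypes started from overlapping levels and ended apart, with the KO EB8 libraries at the level of WT EB5. Smarcc2 rose 4.57-fold in WT (2.19 ± 0.18, limma adjusted p 4.52e-06) and 2.24-fold in KO (1.17 ± 0.18, adjusted p 0.000568), and each of these calls held in every alternative. The change in KO was smaller than that in WT by 1.03 ± 0.26 on the log2 scale (interaction term, adjusted p 0.0342). The rise in WT was already seen from ES to EB4 (0.74 ± 0.18, adjusted p 0.0188) and again from EB5 to EB8 (1.06 ± 0.18, adjusted p 0.00355). The first of these steps did not pass without WT ES replicate 2 (adjusted p 0.0899) or WT EB4 replicate 1 (adjusted p 0.128).

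Smarcc1 (chr9:110034541-110142682, plus strand) had 16315 and 11382 normalised counts in WT ES, 14917 and 12358 at EB4, 11633 and 14395 at EB5 and 15222 and 13417 at EB8. In KO the counts were 17744 and 15912 at ES, 14145 and 14140 at EB4, 11729 and 9871 at EB5 and 8808 and 9310 at EB8. The 4 WT groups overlapped, whereas the KO groups were in descending order from ES to EB8 without overlap. The change from ES to EB8 was 0.07 ± 0.18 in WT (limma adjusted p 0.784), and in KO Smarcc1 fell by 0.89 on the log2 scale, that is 1.86-fold (SE 0.18, adjusted p 0.00287). With quantile normalisation the KO change was -0.41 and did not pass (adjusted p 0.0515), and with upper-quartile scaling the WT change was -0.0083. In the main analysis the difference of the KO and WT changes passed (-0.96 ± 0.26, adjusted p 0.0447). The interaction terms of Smarcc1 and Smarcc2 each held in 1 of the 8 fits with a library left out, that without WT ES replicate 1. In the fits without each of the 7 other libraries of these groups in turn, adjusted p was 0.0839 to 0.148 for Smarcc1 and 0.0702 to 0.114 for Smarcc2.

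Of the actin-related subunits, Actl6a (chr3:32607468-32625890, plus strand) is the form of dividing cells and Actl6b (chr5:137994745-138010810, plus strand) is that of neurons. The sequences at their starts are shown because TFIID acts at core promoters and because these mRNAs moved in opposite directions in WT. They are the RefSeq promoters of build GRCm38.p6, 250 bases before to 50 after the start (chr3:32708296-32708595 and chr5:137553296-137553595, both plus strand), with capitals marking GGGCGG and CCAAT on either strand.
Actl6a: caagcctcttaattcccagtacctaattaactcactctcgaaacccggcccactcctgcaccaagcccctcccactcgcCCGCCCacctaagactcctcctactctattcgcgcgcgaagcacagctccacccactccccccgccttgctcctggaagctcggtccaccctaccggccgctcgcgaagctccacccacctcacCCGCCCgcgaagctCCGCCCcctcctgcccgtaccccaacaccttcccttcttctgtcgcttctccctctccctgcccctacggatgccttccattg
Actl6b: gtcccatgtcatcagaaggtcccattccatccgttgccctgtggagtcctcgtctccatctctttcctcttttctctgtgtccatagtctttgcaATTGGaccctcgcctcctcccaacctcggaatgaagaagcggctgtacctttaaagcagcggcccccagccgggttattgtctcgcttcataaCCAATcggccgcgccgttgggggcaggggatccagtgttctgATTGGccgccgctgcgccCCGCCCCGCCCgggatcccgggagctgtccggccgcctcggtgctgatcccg
TATAAA was in neither window and in none of the 10 windows of these genes. Only 13.6% of the 32851 RefSeq promoters of this length held it, so that its absence from 10 windows does not set them apart. GGGCGG, the letters of a GC box, was in all 10 (35.7% of all promoters). The windows of the 10 genes were rich in G and C, with 55.3% to 87.0% of their bases beside a median of 52.7% over all promoters, and 9 of the 10 had 61.7% or more. Of the 8356 promoters with such a share, 83.1% held the GC box letters. The letters CCAAT were in 3 of the 10 windows, namely Actl6b, Dpf1 and Dpf3 (37.4% of all promoters). Both strands were searched and overlapping matches counted, and in the 2 windows shown no match of GGGCGG overlapped any of CCAAT.

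Actl6a had 5281 and 5658 normalised counts in WT ES, 4327 and 3444 at EB4, 3039 and 3828 at EB5 and 2536 and 3119 at EB8. Its KO counts were 5759 and 5989 at ES, 5062 and 5900 at EB4, 3133 and 3130 at EB5 and 2221 and 2481 at EB8. EB8 was the lowest stage in KO without overlap, and the KO EB4 libraries still overlapped those of ES. Actl6a fell by 0.96 on the log2 scale in WT, 1.94-fold (SE 0.17, limma adjusted p 0.000645), and by 1.32 in KO, 2.5-fold (SE 0.17, adjusted p 0.000169), with a difference between the changes of -0.36 (95% interval -0.88 to 0.15). In KO the step from EB4 to EB5 also passed (-0.80 ± 0.17, adjusted p 0.0252), but it was lost when any of its 4 libraries was left out (KO EB4 and EB5 replicates 1 and 2, adjusted p 0.0625 to 0.188). Of its exon bases, 16.2% overlap Mrpl47 on the opposite strand, and as the library kit does not mark strand, reads of the 2 genes cannot be told apart there. Mrpl47 itself fell by 0.65 in WT and by 1.02 in KO over the same interval (adjusted p 0.0104 and 0.00109).

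Actl6a mRNA is a known target of miR-9-3p, a neural microRNA, whose letters are shown with its seed (bases 2 to 8) in capitals. The single match to that seed in the 369 bases of annotated 3′ UTR of Actl6a is shown under it, at chr3:32625551-32625574 of NCBI37, plus strand, with the matching bases in capitals. MicroRNAs were not measured in these libraries, and a match of letters is not a measured site.
miR-9-3p: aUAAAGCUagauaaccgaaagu
Actl6a site: tcaacgtctgtAGCTTTAgtacac

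Actl6b had 6.37 and 1.59 normalised counts in WT ES, 3.29 and 0 at EB4, 0 and 0 at EB5 and 47.3 and 130.2 at EB8. Its KO counts were 0 and 0.715 at ES, 7.01 and 1.28 at EB4, 2.84 and 7.76 at EB5 and 5.28 and 1.07 at EB8. Only the 2 WT EB8 libraries stood above 8 normalised counts. In reads, the WT EB8 libraries held 168 together and the KO EB8 libraries 6, a ratio of 27.8 after the size factors (exact 95% interval of the counts 12.5 to 77.0, for counting error only). Against WT EB5, where both libraries were at 0, the mean of the WT EB8 libraries was 29.0-fold above a floor of 3 reads per library. These 2 libraries differed, at 47.3 and 130.2 normalised counts, so that this is not a bound for each of them. From ES to EB8 the log2 change was 4.19 ± 1.00 in WT (limma adjusted p 0.0046) and 1.46 ± 1.00 in KO (adjusted p 0.272), the latter between libraries with 0 to 5.28 normalised counts. The change from EB5 to EB8 was 6.31 ± 1.00 in WT (adjusted p 0.00223) and -0.69 ± 1.00 in KO (adjusted p 0.86), with a difference of -7.00 ± 1.41 that is given as a value without a test, since the filter kept this gene through the WT EB8 libraries alone. For the same reason the adjusted p of its other changes to or at WT EB8 supports nothing. The size of these fitted changes rests on the pseudocount of 1, since libraries at 0 enter them. With a pseudocount of 0.1 the WT change from ES to EB8 was 4.57 and did not pass (adjusted p 0.0548).

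**Figure D2:**
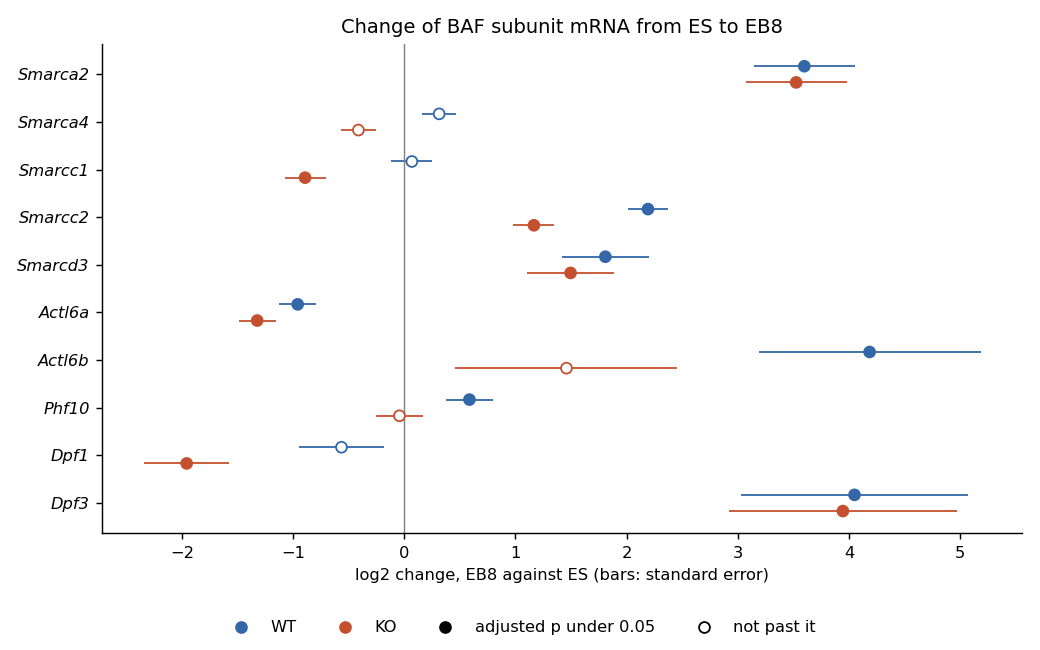
Change of each subunit mRNA from ES to EB8 (horizontal axis, log2 scale, bars of 1 standard error, 2 libraries per group) in WT and in KO, with filled points where the limma adjusted p is under 0.05. The changes in WT and KO were 3.60 and 3.53 for Smarca2 and 4.05 and 3.95 for Dpf3, whereas those of Smarcc1 and Smarcc2 lay lower in KO, with differences of -0.96 and -1.03.

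SMARCD3 is the SMARCD form of heart and of neurons. Smarcd3 (chr5:24096636-24107830, minus strand) had 84.6 and 43.9 normalised counts in WT ES, 35.1 and 52.5 at EB4, 80.9 and 76.9 at EB5 and 216.3 and 216.0 at EB8. The KO libraries had 49.8 and 46.5 at ES, 21.0 and 15.3 at EB4, 27.5 and 31.0 at EB5 and 127.7 and 148.1 at EB8. It was highest at EB8 in both genotypes, and the KO libraries lay below both WT libraries at EB4, EB5 and EB8. Smarcd3 rose 3.5-fold from ES to EB8 in WT (1.81 ± 0.39, limma adjusted p 0.00262) and 2.82-fold in KO (1.50 ± 0.39, adjusted p 0.0106). The KO rise did not pass without KO ES replicate 2 (adjusted p 0.0592) or KO EB8 replicate 2 (adjusted p 0.0623), nor after quantile normalisation (0.88, adjusted p 0.139). From EB5 to EB8 it rose by 1.44 ± 0.39 in WT (adjusted p 0.036) and by 2.20 ± 0.39 in KO (adjusted p 0.0313), and each of these calls was lost when any of its 4 libraries was left out (EB5 and EB8, replicates 1 and 2, adjusted p 0.119 to 0.155 in WT and 0.0915 to 0.16 in KO). Of its exon bases 54.3% overlap Chpf2, which lies on the opposite strand. Chpf2 rose by 1.03 in WT from ES to EB8 (adjusted p 0.0198) and had a log2 difference of -0.03 between KO and WT at EB8 (adjusted p 0.959).

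The PHD-finger subunits read histone marks. PHF10 belongs to the complexes of dividing progenitors. Phf10 (chr17:15081999-15129820, minus strand) had 1987 and 2978 normalised counts in WT ES, 2606 and 3494 at EB4, 2832 and 3556 at EB5 and 3855 and 3461 at EB8. In KO it had 3226 and 2642 at ES, 3472 and 3447 at EB4, 3103 and 2703 at EB5 and 2739 and 2930 at EB8. In WT each stage overlapped the next, whereas the 2 KO EB4 libraries lay above the other 6 KO libraries. Phf10 rose 1.5-fold from ES to EB8 in WT (0.59 ± 0.21, limma adjusted p 0.0372), but this did not pass without WT ES replicate 1, which held the lowest value (0.29, adjusted p 0.299), nor without WT EB8 replicate 1 (adjusted p 0.157) or WT EB8 replicate 2 (adjusted p 0.0751). The change in KO was -0.04 ± 0.21 (adjusted p 0.894) and turned positive with upper-quartile or quantile scaling. Of its exon bases 9.68% overlap 1600012H06Rik on the opposite strand.

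Dpf1 and Dpf3 encode the PHD-finger proteins of neuronal complexes. Dpf1 (chr7:30088970-30102607, plus strand) had 372.3 and 585.2 normalised counts in WT ES, 163.3 and 119.0 at EB4, 77.2 and 95.5 at EB5 and 227.9 and 436.2 at EB8. In KO it had 610.2 and 734.0 at ES, 281.5 and 326.7 at EB4, 120.4 and 219.1 at EB5 and 192.0 and 153.4 at EB8. Its highest group means were those of ES cells, and WT EB5 lay below both WT ES and WT EB8, while in KO the EB5 and EB8 libraries overlapped. In WT Dpf1 fell by 1.74 from ES to EB4 (SE 0.38, limma adjusted p 0.0109) and rose by 1.86 from EB5 to EB8 (SE 0.38, adjusted p 0.00902). The fall did not pass without WT ES replicate 2 or WT EB4 replicate 2 (adjusted p 0.0645 and 0.0738), nor the rise without WT EB5 replicate 1 or WT EB8 replicate 2 (adjusted p 0.0827 and 0.102). From ES to EB8 it fell by 1.96 in KO (3.88-fold, adjusted p 0.00204, in every alternative), and the change in WT was -0.56 ± 0.38 (adjusted p 0.244). The difference of the changes did not pass (-1.39 ± 0.54, adjusted p 0.134).

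Dpf3 (chr12:84314732-84451882, minus strand) had 2.73 and 16.7 normalised counts in WT ES, 1.10 and 3.22 at EB4, 3.76 and 13.2 at EB5 and 98.7 and 181.1 at EB8. In KO it had 1.66 and 5.72 at ES, 18.7 and 1.28 at EB4, 23.7 and 19.4 at EB5 and 55.9 and 73.5 at EB8. All 4 EB8 libraries lay above the other 12. Of the earlier groups only KO EB5 reached a mean of 10 normalised counts (21.5). Dpf3 thus passed the filter largely through the EB8 libraries, so that the adjusted p of its rises to EB8 supports little. It rose by 4.05 ± 1.03 from ES to EB8 in WT (limma adjusted p 0.00651) and by 3.95 ± 1.03 in KO (adjusted p 0.00995), on the log2(normalised count + 1) scale, which understates changes of such low counts. These calls did not hold without WT ES replicate 1 (adjusted p 0.0659), WT EB8 replicate 2 (adjusted p 0.0501), KO ES replicate 1 (adjusted p 0.0824) or KO EB8 replicate 2 (adjusted p 0.0554). The WT rise from EB5 to EB8 (4.04 ± 1.03, adjusted p 0.0262) was lost without WT EB5 replicate 1, WT EB8 replicate 1 or WT EB8 replicate 2 (adjusted p 0.208, 0.0715 and 0.164). In build NCBI37, 88.7% of its longest transcript (2609 of 2940 bases) has another copy of at least 98% identity between positions 84583804 and 84685529 of chromosome 12, so that the reads assigned to Dpf3 are uncertain; the other 9 genes had 0 such bases.

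Between neighbouring stages, the interval from EB5 to EB8 held most of the calls. In WT 6 of the 10 genes rose there and 0 fell (Smarca2, Smarcc2, Smarcd3, Actl6b, Dpf1 and Dpf3; 5.82% of all genes rose and 4.62% fell). Without Actl6b, which passed the filter only through WT EB8, these were 5 of 9, among them Dpf3, which passed it largely through EB8. In WT edgeR and DESeq2 on the recovered reads each also called 6. In KO 1 rose and 0 fell (Smarcd3, beside 0.428% and 0.31% of all genes), edgeR called 1 and DESeq2 2, and 3 had an unadjusted p under 0.05. Of all genes, edgeR called 83 and DESeq2 661 there, and 2065 had such a p. Of the earlier intervals, ES to EB4 in WT had 1 rise and 1 fall (Smarcc2 and Dpf1; 8.98% and 7.57% of all genes) and EB4 to EB5 in KO had 1 fall (Actl6a; 1.82% of all genes rose and 0.695% fell). From EB4 to EB5 in WT, limma called 0 of the 10 (2.59% of all genes rose and 1.14% fell), 1 had an unadjusted p under 0.05, and edgeR and DESeq2 called 0. Of all genes, 2387 had such a p, edgeR called 525 and DESeq2 1089. From ES to EB4 in KO, limma called 0 (2.51% and 0.992%), 3 had an unadjusted p under 0.05, edgeR called 0 and DESeq2 3. Over all genes these counts were 3443 by unadjusted p, 503 by edgeR and 1690 by DESeq2. Same-numbered libraries deviated together over the KO stages and over the WT embryoid body stages (r 0.233 to 0.422 and 0.523 to 0.605 across genes), although the labels do not say what the numbers mark. With the replicate number as a block in these stages, chosen after seeing the data, Smarca2 also passed from EB5 to EB8 in KO (1.41, limma adjusted p 0.0477) and from ES to EB4 in KO (1.80, 0.0114). In the same fit Smarcc2 passed from EB4 to EB5 in KO (0.66, 0.0288), and Smarca2 and Actl6a from ES to EB4 in WT (1.02 and -0.50, 0.0393 and 0.0429). As test of the difference itself, the EB5 to EB8 change differed between genotypes for 0 of the 9 genes without Actl6b (0.682% of all genes had a lower and 0.0992% a higher change in KO). The ES to EB8 change was smaller or more negative in KO for Smarcc1 and Smarcc2 (3.44% lower and 3.85% higher). Over the 10 genes the median difference of the ES to EB8 changes was -0.68, beside -0.04 over all genes.

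The comparison of KO with WT at one stage asks when the subunit levels part. At EB8 both KO libraries lay below both WT libraries for all 10 genes, an arrangement that 33.5% of all genes tested had. By the test, 4 of the 10 were lower and 0 higher (12.5% of all genes were lower and 10.4% higher), with a median log2 change of -0.85 over the 10 genes beside -0.03 over all genes. Without Actl6b, which passed the filter only through WT EB8, 3 of 9 were lower, with a median of -0.82. edgeR and DESeq2 also called 4, and 6 had an unadjusted p under 0.05. Smarcc2 was 1.98-fold lower (-0.98 ± 0.18, limma adjusted p 0.00274) and Smarca4 1.76-fold lower (-0.82 ± 0.15, adjusted p 0.00289), and both calls held in all 15 alternatives, each library left out in turn included. Smarcc1 was 1.58-fold lower (-0.66 ± 0.18, adjusted p 0.0225), a call that was lost without WT EB8 replicate 1 (adjusted p 0.126), WT EB8 replicate 2 (0.0592), KO EB8 replicate 1 (0.108) or KO EB8 replicate 2 (0.0697). Actl6b, with 168 against 6 reads, had a log2 change of -4.47 ± 1.00 (adjusted p 0.00741) and did not pass without WT EB8 replicate 2 (adjusted p 0.0705) or KO EB8 replicate 2 (adjusted p 0.0636), nor with a pseudocount of 0.1 (adjusted p 0.0677). Smarca2 (-1.04 ± 0.46, adjusted p 0.12), Dpf1 (-0.87 ± 0.38, adjusted p 0.12), Smarcd3 (-0.65 ± 0.39, adjusted p 0.26), Dpf3 (-1.05 ± 1.03, adjusted p 0.5), Phf10 (-0.37 ± 0.21, adjusted p 0.235) and Actl6a (-0.26 ± 0.17, adjusted p 0.29) did not pass. With upper-quartile scaling the median of all genes stood at 0.11, and the 10 log2 changes then ran from -4.35 to -0.12, all still negative.

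Marker lists moved with this comparison. At EB8, 8 of 8 neuron markers and 6 of the 7 neural progenitor markers tested were lower in KO, 7 of 8 pluripotency markers were higher, and 0 of the 6 fibroblast markers tested passed. Of all genes, 12.5% were lower and 10.4% higher. The summed normalised counts were 19729 to 26068 in WT and 1599 to 1747 in KO for the neuron markers, 17775 to 23056 and 3834 to 3908 for the progenitor markers, 1512 to 2068 and 26075 to 29956 for the pluripotency markers, and 2130 to 2805 and 877 to 3167 for the fibroblast markers. No marker of these lists was at 0 in both libraries of an EB8 group. The neuron markers also summed to 8397 to 9461 in WT ES and to 10224 to 10835 in KO ES. From ES to EB8 in WT, 7 of them were called higher and 1, Stmn2, lower. The part of these shifts in the subunit differences was not tested.

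Before EB8 none of the 10 genes passed the test between genotypes in limma without a replicate block. With the planned replicate block over all libraries, Smarcc2 passed at EB4 (-0.56, limma adjusted p 0.0318). The counts that follow are without a block. At ES limma called 0 of 10 (0% of all genes in either direction), 0 had an unadjusted p under 0.05, and edgeR and DESeq2 called 0. The summed fibroblast markers were 1033 to 2650 in the WT and 209 to 496 in the KO ES libraries, with Fap at 0 in both WT ES libraries, and their part in the ES values was not tested. At EB4 limma called 0 (2.75% of all genes were higher and 3.37% lower), 5 had an unadjusted p under 0.05, edgeR called 0 and DESeq2 3. At EB5 limma called 0 (2.17% higher and 2.17% lower), 4 had an unadjusted p under 0.05, edgeR called 0 and DESeq2 2. Over all genes these counts were 3342 by unadjusted p, 603 by edgeR and 1719 by DESeq2. The 10 log2 changes ran from -1.74 to 0.52 at ES, from -1.21 to 1.17 at EB4 and from -1.40 to 2.54 at EB5, with medians of -0.02, 0.13 and -0.20. The values of -1.74 and 2.54 were those of Actl6b, at 0 to 7.76 normalised counts. Smarca4 was lower in both KO libraries at EB4 and EB5 with changes of -0.44 (95% interval -0.77 to -0.10) and -0.53 (-0.86 to -0.19), but adjusted p was 0.111 and 0.074.

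The mRNA of a subunit was set against that of its alternative by the ratio of the pair within a library, which does not depend on the size factor. Proteins and the make-up of the complexes were not measured in these libraries, so that an exchange of subunits was not tested. These ratios are given per length, as the share of the first gene in the sum of the normalised counts per kilobase of exon of the pair, and without a test. Smarca2 made up 0.853% and 1.63% of the ATPase mRNA in WT ES and 8.12% and 13.5% in WT EB8, against 0.46% and 0.892% in KO ES and 9.29% and 8.97% in KO EB8. The KO EB8 values lay between the WT EB8 values. Smarcc2 made up 8.12% and 9.57% of the SMARCC mRNA in WT ES and 29.3% and 30.0% in WT EB8, against 7.36% and 7.59% in KO ES and 26.6% and 23.9% in KO EB8. The shift of the log2 ratio from ES to EB8 was 2.12 in WT and 2.06 in KO, although Smarcc1 and Smarcc2 were each lower in KO at EB8. Actl6b made up 2.58% and 5.60% of the actin-related mRNA at EB8 in WT and 0.337% and 0.061% in KO, while the other 12 libraries ran from 0% to 0.351%. Of the 5 pairs compared, this had the widest gap between the genotypes at EB8, -4.21 as a log2 ratio with a pseudocount of 1. The others were -0.23 for Smarca2 to Smarca4, -0.33 for Smarcc2 to Smarcc1, -0.51 for Dpf1 to Phf10 and -0.69 for Dpf3 to Phf10. At ES the gap for Actl6b to Actl6a was -1.84, between libraries near 0 for Actl6b. As Actl6b passed the filter only through the WT EB8 libraries, its gap at EB8 is given as a value only.

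**Figure D3:**
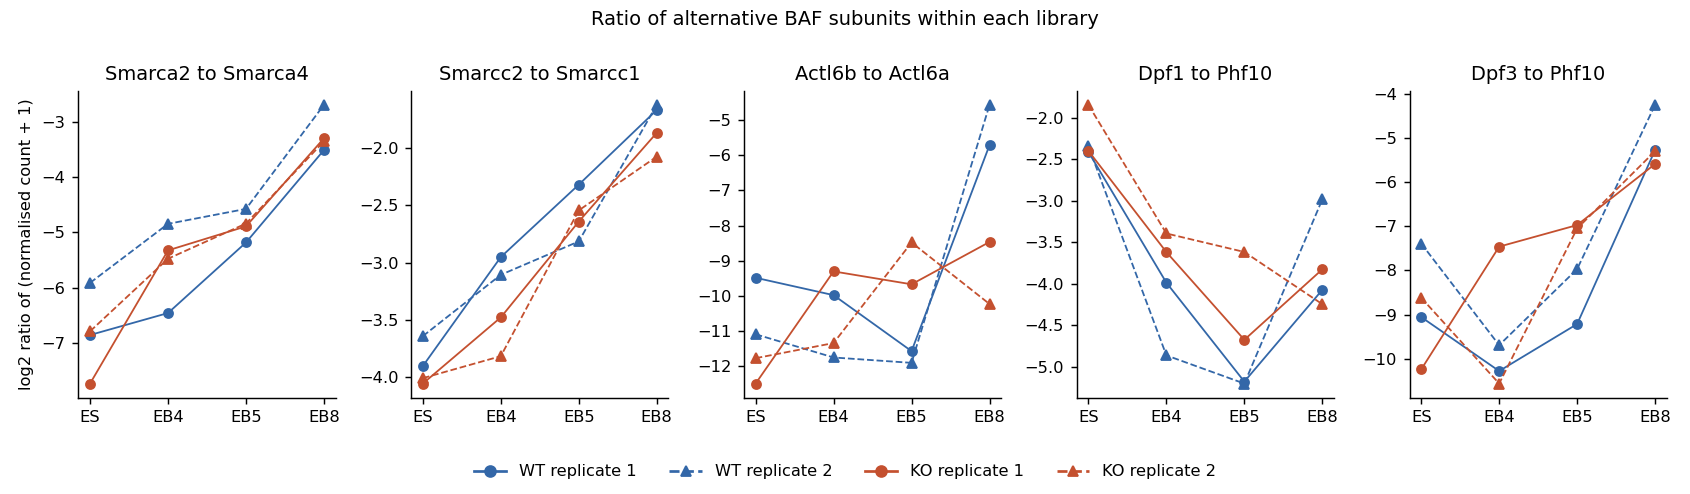
Log2 ratio of normalised counts (+ 1) of 5 pairs of alternative subunits in each library (vertical axis, own scale in each panel) over the 4 stages (horizontal axis), not corrected for length. Lines join libraries with the same genotype and replicate number; in the Actl6b panel the 2 WT EB8 points at -5.72 and -4.57 stand above the 2 KO points at -8.47 and -10.23, whereas in the Smarca2 panel the KO points lie between the WT points at EB8.

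Against Phf10, the WT shares of Dpf1 in the summed level per kilobase were 21.0% and 21.8% at ES, 3.72% and 3.67% at EB5, and 7.74% and 15.2% at EB8. In KO the shares were 21.2% and 28.3%, 5.22% and 10.3%, and 9.05% and 6.92% at these stages. The KO EB8 libraries overlapped the WT EB8 libraries, and in neither genotype did the share at EB8 reach that of ES. Against Phf10, the EB8 shares of Dpf3 were 3.15% and 6.22% in WT and 2.52% and 3.08% in KO, while no library of an earlier stage was above 0.96%. As for its levels, the Dpf3 shares carry the uncertainty of its copied sequence.

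Of 20 other subunits of BAF and of the related PBAF complex, 19 were matched and tested. At EB8, 7 were lower in KO and 0 higher (12.5% and 10.4% of all genes), with a median log2 change of -0.59 beside -0.03 over all genes. The first 6 by size were Bcl11a (-3.26 ± 0.49, limma adjusted p 0.000716), a zinc finger protein of BAF in brain and lymphocytes, Bcl7a (-2.06 ± 0.22, adjusted p 0.000117), Gltscr1 (-1.07 ± 0.26, adjusted p 0.011), which marks the non-canonical form of the complex, the DNA-binding subunit Smarce1 (-0.85 ± 0.25, adjusted p 0.0281), the SMARCD form Smarcd1 (-0.80 ± 0.19, adjusted p 0.00991) and the ARID subunit Arid1b (-0.68 ± 0.18, adjusted p 0.0165). The last was Arid2 of PBAF (-0.59, adjusted p 0.044). Bcl11a and Smarce1 lie on chromosome 11, whose level differed between libraries as given above. From ES to EB8, 11 of the 19 rose and 2 fell in WT (24% and 22.8% of all genes). In KO 2 rose and 3 fell (19.7% and 18% of all genes), which was not above the share of all genes in either direction. Bcl11a had 168.4 and 103.6 normalised counts in WT ES and 854.8 and 1076 in WT EB8, against 73.1 and 180.8 in KO ES and 79.1 and 123.6 in KO EB8. Like Actl6b, it was higher in the WT EB8 than in the KO EB8 libraries. Unlike Actl6b, Bcl11a was also called lower from EB4 to EB5 in both genotypes, so that its level moved before EB8 as well. Ss18l1, which encodes the CREST subunit of neuronal complexes, rose in WT (1.64 ± 0.24, adjusted p 0.000167) and in KO (0.82 ± 0.24, adjusted p 0.0164), and its paralogue Ss18 of dividing cells fell in both.

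**Figure D4:**
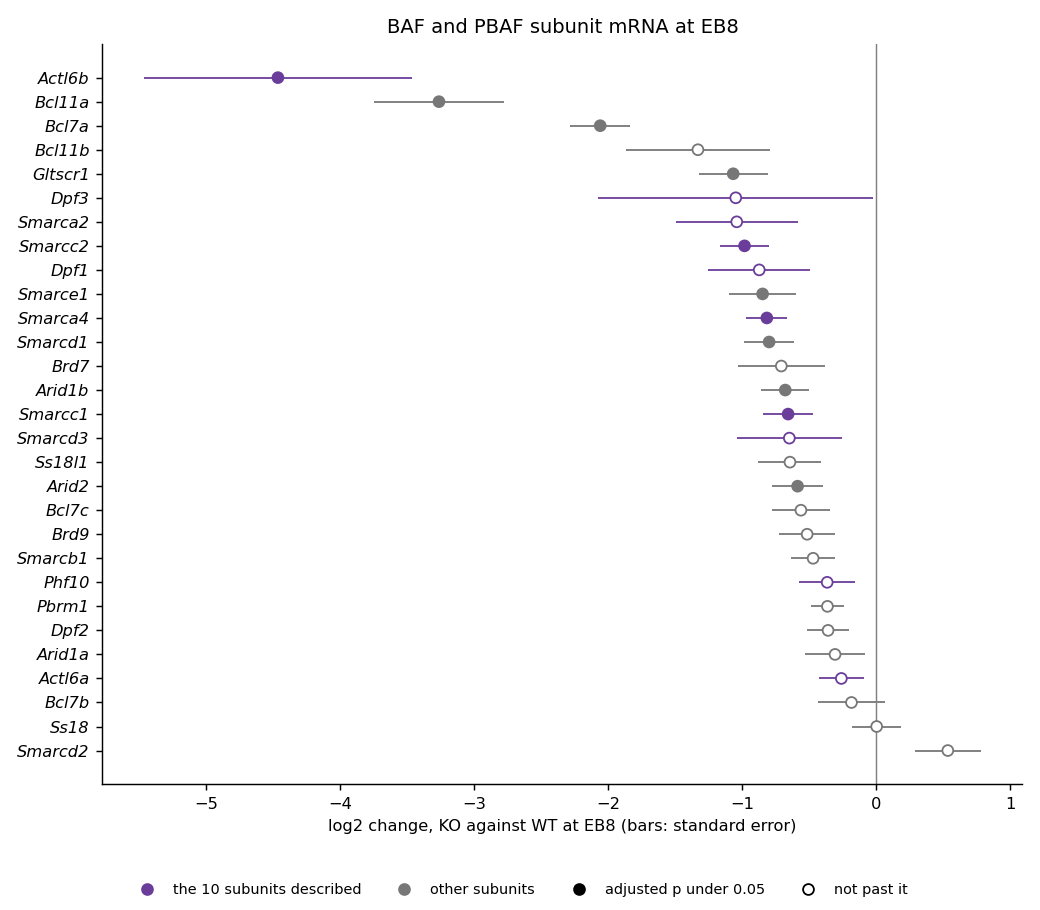
Log2 change of KO against WT at EB8 (horizontal axis, bars of 1 standard error, 2 libraries per group) for the 10 subunits described and the 19 other subunits tested, sorted by size, with filled points where the limma adjusted p is under 0.05. The 10 subunits run from -4.47 (Actl6b) to -0.26 (Actl6a), and of the 19 others only Smarcd2 and Ss18 lie at or above 0.

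By Pearson correlation of log2(normalised count + 1) over the 16 libraries, which share stages and genotypes, the genes with the pattern most like each subunit were the following, as a description. Lpin2 (r 0.979) and Npr2 (0.963) were nearest to Smarca2. Csrp2bp (0.948) and Tubb5 (0.944) were nearest to Smarca4, and Sf3a3 (0.941) and Zfp207 (0.939) to Smarcc1. Papd4 (0.963) and Cfl2 (0.959) were nearest to Smarcc2, Ticam1 (0.940) and Pcdhb21 (0.927) to Smarcd3, and Parp1 (0.960) and Fbxo5 (0.955) to Actl6a. For Actl6b these were Scrt2 (0.891) and Pou2f2 (0.887), for Dpf1 Ldb1 (0.927) and Nfrkb (0.927), and for Dpf3 Hoxc6 (0.927) and Rassf10 (0.920). Phf10 had the weakest neighbours, Gm14342 (0.795) and Tmeff1 (0.771). Among the 10 subunits, Smarca2 and Smarcc2 had an r of 0.863 and Smarca2 and Dpf3 of 0.805, and Actl6a ran against Smarcc2 (-0.821) and Smarca2 (-0.803).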

How the data were processed

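Polyadenylated RNA of 16 libraries (8 groups of 2) was sequenced as single-end reads of 54 bases. Per the submitters' processing notes, base calling was by CASAVA 1.7 and 1.8, alignment by TopHat2 2.0.10 to mm9 (NCBI37), counting by HTSeq 0.5.4p3 and normalisation by DESeq2 1.0.19; the annotation release and use of strand are not given in the sources used here. The deposited values are a normalised signal, the read count of a gene divided by the size factor of its library; 100% of values were whole multiples of a step per library (tolerance 0.0001 of a read), which gave back the reads. Such depths and floors cover counting error only, as PCR copies are not independent molecules.

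The test, two-sided, was limma 3.58.1 in R 4.3.3 on log2(normalised count + 1) with a mean per group over all 16 libraries and a spread moderated along a trend (residual degrees of freedom 8, prior 4.27), for 16124 genes with a mean of at least 10, Benjamini-Hochberg adjusted, at 0.05. The scripts were tested on simulated data. edgeR 4.0.16 and DESeq2 1.42.0 served as alternatives on the recovered reads, beside other pseudocounts, filters, scalings, libraries in the fit, replicate blocks and each library left out. Positions are from GENCODE M1 (NCBI37), promoters and the microRNA from RefSeq. Overlaps and copies were computed on NCBI37.

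The members and lists were chosen with earlier results of these data known. Named were all 10 members, the 6 other subunits with the largest change among those that passed at EB8, and the 2 genes nearest to each member by correlation; Arid2, Ss18l1, Ss18, Smarcd2, Taf4a and the genes that overlap a member were named after their values were seen. Of the listed genes Gltscr1l and Sox1 were not matched and are not analysed here.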

Additional observations from a re-analysis of the deposited data

Results flagged for a closer look

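For 2 results a test of the difference between genotypes passed the threshold. The ES to EB8 change of Smarcc1 was lower in KO than in WT by 0.96 on the log2 scale (difference -0.96, limma adjusted p 0.0447), and that of Smarcc2 by 1.03 (difference -1.03, adjusted p 0.0342). In fits that left out 1 of the 8 libraries of these groups, each passed in 1 of 8. Both differences use the WT ES libraries, for which line and stage cannot be told apart, as given above. With groups of 2 libraries, single libraries were not tested as outliers.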

How the results depend on the processing

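The calls of Smarca2, Smarcc2 and Actl6a from ES to EB8 in both genotypes, of Dpf1 from ES to EB8 in KO, and of Smarca4 and Smarcc2 between genotypes at EB8, passed in every alternative run. Of 2252 log2 changes of the 10 genes under all alternatives, 66 changed sign, 0 of them past the threshold in either fit. Those of the values followed singly were Smarca4 from ES to EB8 in KO with quantile normalisation (0.022), Smarcc1 from ES to EB8 in WT with upper-quartile scaling (-0.0083) and with libraries left out (-0.19 to 0.33), and Phf10 from ES to EB8 in KO with upper-quartile scaling (0.077), quantile normalisation (0.16) and libraries left out (-0.19 to 0.10). The cause of the changes listed here was not tested unless the setting itself gives fewer libraries or genes.

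Counts of the 10 genes called moved as follows. DESeq2 called 3 between genotypes at EB4 and 2 at EB5 (0 in limma), 3 from ES to EB4 in KO (0), 2 from EB4 to EB5 in KO (1), 2 from EB5 to EB8 in KO (1) and 2 for the difference of the EB5 to EB8 changes (1). edgeR called 1 for the difference of the ES to EB8 changes (2) and 0 for that of the EB5 to EB8 changes (1). Of all genes, edgeR called 1114 and 112 for these differences. A fit of only the groups compared called 0 from ES to EB4 in WT (2), 0 from EB4 to EB5 and 0 from EB5 to EB8 in KO, and 0 for either difference of changes. No filter gave 0 for the difference of the ES to EB8 changes, a mean of at least 50 gave 1 from ES to EB4 in KO and 0 for the difference of the EB5 to EB8 changes, and a pseudocount of 0.1 gave 0 for the latter. Upper-quartile scaling gave 1 from ES to EB4 in KO and 0 for the difference of the ES to EB8 changes. It shifted the median of all genes by up to 0.16 (the difference of the ES to EB8 changes). Quantile normalisation gave 0 from EB4 to EB5 in KO and 0 for the difference of the EB5 to EB8 changes. With a library left out the counts were 2 to 3 at EB8 between genotypes (4 with all), 5 to 7 from ES to EB8 in WT and in KO (7), 0 to 2 from ES to EB4 in WT (2), 2 to 5 from EB5 to EB8 in WT (6), 0 from EB4 to EB5 and 0 from EB5 to EB8 in KO, and 0 to 3 and 0 for the 2 differences of changes. Such a fit leaves an arm with 1 library, which is assumed to vary like the other groups.

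The labels do not say whether a replicate number marks a line. The correlation of the deviations of same-numbered libraries was 0.523 to 0.605 among the WT embryoid body stages, 0.233 to 0.422 among the KO stages, -0.179 to -0.048 between WT ES and the later WT stages and -0.209 to 0.335 between genotypes at one stage. With the planned replicate block over all libraries, 1 gene was called between genotypes at EB4, 1 from ES to EB4 in KO and 2 from EB4 to EB5 in KO. With a replicate block in KO and in WT embryoid bodies, chosen after seeing the data, the counts were 4 from ES to EB4 in WT, 1 from ES to EB4 in KO, 2 from EB4 to EB5 in KO and 2 from EB5 to EB8 in KO. With that block as a correlation of 0.354 (3, 2 and 2 for these KO intervals), Smarca4, Smarcc1 and Smarcc2 stayed called at EB8 between genotypes. Actl6b was called there as well. The gene called for the difference of the EB5 to EB8 changes was Actl6b in each block fit, as it was without a block. The filter kept this gene only through the WT EB8 libraries, so that this call and its call between genotypes at EB8 support nothing. This holds also where these calls are counted above. Depth limits Actl6b (at most 123 reads in a library) and Dpf3 (at most 171).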
